A study of Mus musculus with 4 samples.

Results

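Distal common SOX3 peaks in repeats are places where a SOX3 peak was called in mouse testis, far from the nearest annotated gene start and inside annotated repeats. Binding at these places was not tested separately. They were chosen by their annotation: a peak of the authors' common table belonged to the set when its distance to the nearest transcription start site (TSS) was over 10000 bp and its detailed annotation named a repeat by name, class and family. This gave 250 of the 778 common peaks (32.1%). The closest set for comparison was the 242 common peaks (31.1%) that were as far from a TSS and carried no repeat annotation. A further 53 repeat peaks lay within 10000 bp of a TSS and were left out.

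The data were chromatin immunoprecipitation with sequencing (ChIP-seq) of SOX3 from testes of 129/SvJ mice at postnatal day 7, in 3 replicate samples from 3 different testes, with 1 input sample of chromatin that was not immunoprecipitated. All 4 samples shared the strain, age and tissue, and the antibody was a goat polyclonal raised against human SOX3. Per the labels' protocols the mice descended from a Sox3 null line of mixed background, with C57Bl/6, CBA, MF1 and 129 sv/eV ancestry, bred onto 129/SvJ to the F6 generation, and no genotype is given for any testis. Whole testis was used, so the values come from a mixture of germ and somatic cells, and the peak lists hold no expression values by which the tissue could be checked. Replicates 1, 2 and 3 had 2912, 2598 and 2734 peaks. Their read depth is unknown. The authors' score, 1 value per peak with a lowest value of 40 to 40.02 in the lists, ranks peaks within a list, and no source used here names its scale. Input values were not analysed here.

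SOX3 belongs to the SOX family of transcription factors, which bind DNA in the minor groove through an HMG box, and in the testis it is known from spermatogonia on the way to differentiation. Much of the mouse genome is repeated sequence. Long interspersed elements (LINE) of the L1 family and long terminal repeat (LTR) elements copy themselves through RNA, short interspersed elements (SINE) use the L1 machinery, and germ cells hold most of these elements silent with DNA methylation and piRNAs. Satellites form the tandem arrays of centromeres. The repeat annotation also lists copies of small nuclear RNA (snRNA) and ribosomal RNA (rRNA) genes, which in mouse are partly functional genes and partly pseudogenes.

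The distal repeat peaks were mostly retrotransposon copies, but snRNA copies were the largest class among those that recurred in every testis. LINE L1 elements held 88 of the 250, LTR elements 59, simple repeats 31, snRNA copies 25, satellites 17, SINEs 16 and rRNA copies 10, with 2 each in DNA transposons and low-complexity sequence. The share of the genome in each class was not set beside these counts, so they show no preference for a class. Peaks present in all 3 lists numbered 41 (16.4%, exact Clopper-Pearson 95% interval 12.0 to 21.6%), beside 29.9% of all 778 common peaks and 73 of the 242 distal peaks outside repeats (30.2%, 24.5 to 36.4%). With a 50% reciprocal overlap required, the shares were nearer to each other, at 14.0% of members (9.95 to 18.9%) and 19.4% of distal peaks outside repeats (14.6 to 24.98%). Of the 41, 20 were snRNA copies. Without that class 21 of 225 (9.33%, 5.87 to 13.9%) were in all 3 lists. Of the LINE and LTR members together, 7 of 147 (4.76%) were. Satellites and SINEs had 5.88 and 12.5%, whereas simple repeats and rRNA copies, with 25.8 and 30.0%, were near the share of all common peaks. Peaks are not replicates of the experiment, and intervals cover counting error only, so these shares are descriptions.

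**Figure D1:**
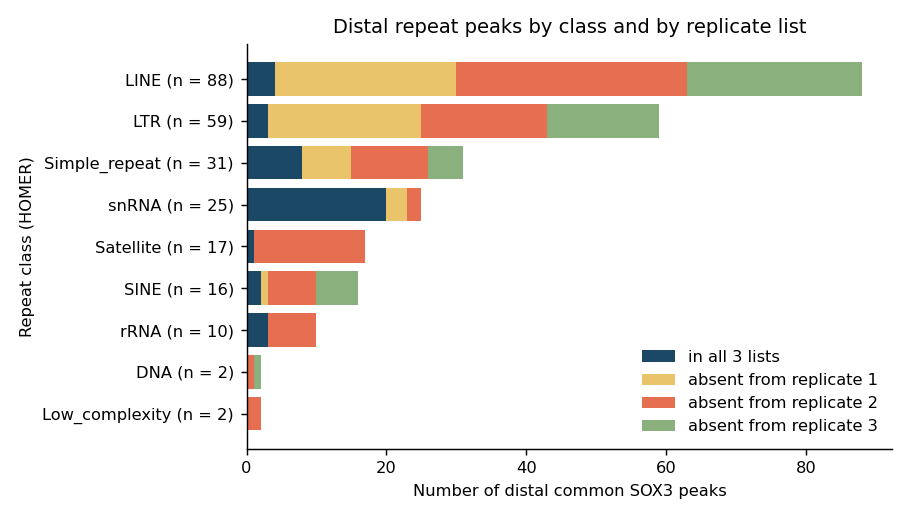
Number of distal common SOX3 peaks (horizontal axis) in each repeat class of HOMER (vertical axis), with the part found in all 3 replicate lists and the parts absent from replicate 1, 2 or 3 stacked in colour. The snRNA bar is mostly the part in all 3 lists (20 of 25), and the satellite bar is mostly the part absent from replicate 2 (16 of 17).

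Over all members together, scores were lower than outside repeats in each of the 3 lists. The median score of the distal repeat peaks was 58.4, 50.2 and 56.4 in replicates 1, 2 and 3, against 73.0, 72.4 and 70.8 for distal peaks outside repeats. The classes were not alike. LINE and LTR members had medians of 49.8, 46.6 and 49.3, and snRNA members 399, 227 and 222. Simple repeats had 77.9, 55.7 and 77.0, above the value outside repeats in replicates 1 and 3 only. For rRNA copies, with 81.1, 48.8 and 56.8, this held in replicate 1 only. The mean difference, repeats minus outside, was -17.1 ± 4.44 (SD, n = 3; exact paired permutation test over replicates, two-sided, p = 0.25, adjusted p = 0.50 over 2 tests). It was negative in 3 of 3 replicates, and 0.25 is the smallest p that 3 pairs can give. A score of 100 or more in any list was reached by 49 members (19.6%), beside 36% of all common peaks, and 100 members (40%) stayed below 60 in every list, beside 27.2% of all common peaks and 21.5% of distal peaks outside repeats. Of the members, 76.4, 61.2 and 78.8% were found in replicates 1, 2 and 3, against 81.0, 82.6 and 66.5% of the distal peaks outside repeats. The difference in this share was -4.59, -21.4 and 12.3 percentage points, so its sign was not the same in the 3 replicates (exact paired permutation test, two-sided, p = 0.75, adjusted p = 0.75). A common peak must be in at least 2 lists, so the shares of the 3 lists are tied to the share in all 3. The test therefore adds nothing to the comparison of that share.

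Replicate 2 lacked more members than the other lists did. Of the 250 members, 97 were absent from replicate 2, 59 from replicate 1 and 53 from replicate 3. Over all 778 common peaks, replicate 2, the shortest list, also lacked the most, with 202 absent against 158 from replicate 1 and 185 from replicate 3. Outside repeats, the list that lacked the most distal peaks was replicate 3 (81 of 242), and replicate 2 lacked 42. With satellite and rRNA copies left out, 74 of the remaining 223 members were absent from replicate 2, 59 from replicate 1 and 53 from replicate 3. Read depth is unknown, so a peak missing from a list may be one below the caller's limit there. In whole tissue, fewer cells with a bound site and less binding per cell cannot be told apart either.

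**Figure D2:**
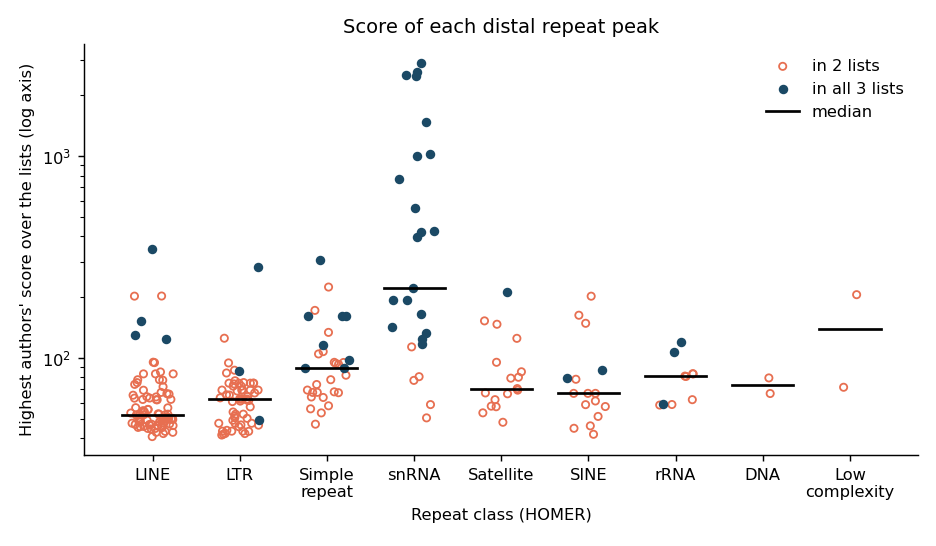
Highest authors' score of each member over the replicate lists (vertical, log axis) by repeat class (horizontal), with filled points for members in all 3 lists, open points for members in 2 and a bar at the class median. The snRNA class has its median at 222 and reaches 2899.6, whereas LINE and LTR copies have medians of 52.3 and 62.5.

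Small nuclear RNA copies held the 10 members with the best mean rank over the lists. U1, U2 and U5 are RNAs of the spliceosome, which cuts introns out of messenger RNA, and U3 guides the processing of ribosomal RNA and is filed in the same class by the repeat annotation. The copies were of U1 (8 peaks), U2 (7), U3 (6) and U5 (4). All 6 U3 peaks, 6 of the U1, 6 of the U2 and 2 of the U5 peaks were in all 3 lists. The 25 peaks had median scores of 399 in replicate 1, 227 in replicate 2 and 222 in replicate 3, which lay at the 99.0, 97.6 and 97.8 percentile of the respective list.

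The U3 class held the strongest members. Its 4 leading copies lay in intron 2 of 30 of Tex14, a gene of the germ cell intercellular bridge, between 15688 and 43817 bp downstream of the TSS. Their scores were 2495.8 to 2899.6 in replicate 1, 1710.2 to 2081 in replicate 2 and 1953 to 2162 in replicate 3. No other member reached these scores in any list. The remaining U3 copies were intergenic. That nearest to Pecam1, an adhesion molecule of endothelial cells, on chromosome 11 from 106586495 to 106586742 (mm9), scored 162, 103 and 165 in replicates 1, 2 and 3. That nearest to Cnot11, a subunit of a deadenylase complex, on chromosome 1 from 39576303 to 39576542, scored 118, 68.5 and 93.1.

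U1 copies stood in 2 groups, near Eapp and on chromosome 3, and in single places. Near Eapp, a protein that binds E2F factors, 3 U1 peaks lay between 14586 and 33797 bp upstream of the TSS. The first, on chromosome 12 from 55810883 to 55811993, scored 1480.2, 857 and 813. The second, from 55830121 to 55831178, scored 769, 375 and 385, and the last, from 55814850 to 55815664, scored 551, 354 and 242. All 3 were highest in replicate 1. An LTR copy of the MTC type lay beside them, 38547 bp upstream, from 55835206 to 55835592, with scores of 281, 193 and 240.3. On chromosome 3 the U1 copies nearest to BC107364 and Hfe2, starting at 96290120 and 96292180, scored 1018 and 1001 in replicate 1, 839.7 and 836 in replicate 2, and 838 and 803 in replicate 3. A single U1 copy 238512 bp from C630028M04Rik, on chromosome 4, reached 424, 227 and 278 in a peak of 240 bp. The U1 copies in an intron of Ss18, a chromatin remodelling subunit, and 995118 bp from Mir6350 had scores of 96.4 and 77.4 in replicate 1 and 113 and 58.9 in replicate 3. Neither was called in replicate 2.

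U2 and U5 copies also stood in groups. A pair of U2 peaks near Rdm1, a recombination protein gene, on chromosome 11 scored 409 and 389 in replicate 1, 422 and 397 in replicate 2 and 256 and 265 in replicate 3. On chromosome 1, 3 U2 peaks within 18487 bp had Mreg, a gene of pigment granule transport, or Pecr, a peroxisomal reductase, as nearest gene. They scored 194, 112 and 132 in replicate 1, 125, 142 and 74.1 in replicate 2, and 111, 86.2 and 47.6 in replicate 3. The U2 copy near Slfn14 scored 123, 123 and 112. The pair of U5 copies near Parp16, starting at 65044186 and 65049333 on chromosome 9, was lowest in replicate 1, with 149.5 and 89.6, against 217 and 185 in replicate 2 and 222 and 193 in replicate 3. A further pair of U5 copies, near the kinesin gene Kif2c on chromosome 4, scored 80.7 and 44.6 in replicate 2 and 70.7 and 50.4 in replicate 3 and was absent from replicate 1.

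**Figure D3:**
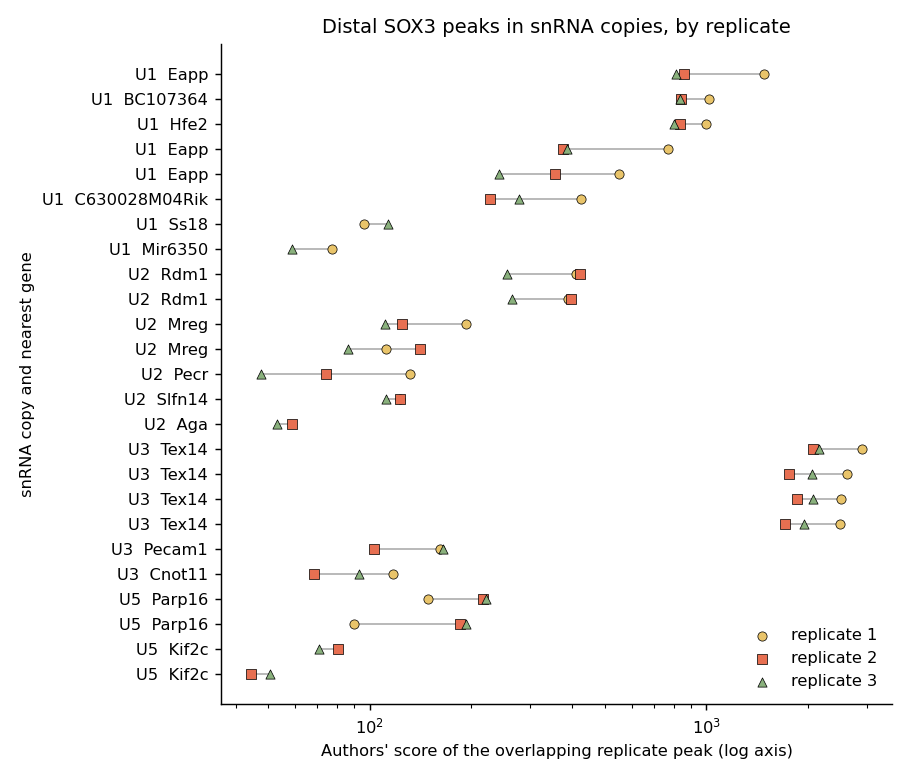
Authors' score of the overlapping replicate peak (horizontal, log axis) for each of the 25 distal snRNA peaks (vertical, repeat name and nearest gene), with 1 marker per replicate and a line from the lowest to the highest. The 4 Tex14 copies of U3 stand above 1710 in every replicate, and a missing marker means that the list had no peak there.

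The widest snRNA peaks recurred in every list. The snRNA peaks had a median width of 424 bp, and all 11 that were wider than 500 bp were in all 3 lists, against 9 of 14 narrower ones. Those 11 also had best scores of 397 or more, and 4 of them lay in Tex14, so width, score and place cannot be told apart. The share in all 3 lists of all common peaks over 500 bp was not computed. Of the 20 snRNA peaks found in both replicates 1 and 2, 15 scored higher in replicate 1, with a median ratio of 1.43. Replicates 2 and 3 had a median ratio of 1.00 over 23 shared snRNA peaks. Scores rank peaks within a list, and no ratio over all common peaks was computed. A difference between whole lists was therefore not separated from a trait of snRNA copies. Of the 3 snRNA peaks over 50000 bp from a TSS, 1 was in all 3 lists. Counted as 1 where within 50 kb of each other, 71.4% of the snRNA places were in all 3 lists. Near-identical copies can share reads. The labels and headers do not say how such reads were placed, so scores of neighbouring copies may not be separate signals.

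LINE peaks were the most frequent and among the weakest members. All 88 were of the L1 family, and 4 (4.55%, 1.25 to 11.2%) were in all 3 lists. Names beginning with L1Md_, the mouse-specific subfamilies, which include the copies still able to move, made up 59 of them: 19 of L1Md_F2, 17 of L1Md_T, 16 of L1Md_A, 5 of L1Md_F and 2 of L1Md_F3. No L1Md_ peak was in all 3 lists (0 of 59, for which the exact 95% interval reaches 6.06%). Their best scores ran from 42.2 to 95.2 with a median of 52.3, and 41 stayed below 60 in every list. The groups named L1_Mus (7 peaks), Lx (9) and L1_Mur, L1_Rod or L1VL (3) also had 0 in all 3 lists. The counts for L1Md_ were 17 absent from replicate 1, 23 from replicate 2 and 19 from replicate 3, so no single library lacked most of them.

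All 4 recurrent LINE peaks were in old elements shared among mammals. These names, with the other L1 names outside the groups above, made up 10 peaks, of which 4 were in all 3 lists (12.2 to 73.8%), and their median best score was 109. An L1MEa copy on chromosome 3 from 68096245 to 68096863, 175551 bp upstream of Schip1, scored 347, 232 and 322 in replicates 1, 2 and 3, the highest of the LINE members. That peak lay in intron 1 of 6 of its annotated transcript. An intronic HAL1b copy 61506 bp from Ube2t, a ubiquitin-conjugating enzyme of DNA repair, scored 117, 153 and 92.7. The L1MB7 copy 30955 bp from 2610028E06Rik scored 130.5, 111 and 75.0. The L1M4 copy 59421 bp from Rwdd4a scored 124, 49.1 and 47.5, so it was well above the minimum in replicate 1 alone. Among LINE members found in 2 lists, the highest were an Lx9 copy in intron 2 of 8 of Car8 and a HAL1-3A_ME copy in intron 6 of 34 of Col28a1. They scored 202 and 202 in replicate 2 and 114 and 116 in replicate 3, with no peak in replicate 1.

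LTR peaks had a median best score of 62.5, and 24 of the 59 stayed below 60 in every list. Of the 59, 3 (5.08%, 1.06 to 14.1%) were in all 3 lists. By family, 40 were ERVK, 10 ERV1, 5 MaLR and 4 ERVL. The MaLR family, made up of elements without genes for an envelope, had 2 of its 5 peaks in all 3 lists, and ERVK had 1 of 40. Those 2 were the MTC copy near Eapp and an ORR1E copy 68879 bp upstream of Srsf6, a splicing factor, with scores of 86.1, 77.9 and 43.2. The ERVK peak was an RLTR13A2 copy 20480 bp upstream of the pheromone receptor Vmn1r184, with scores of 49.4, 43.5 and 45.2. Intracisternal A particle (IAP) elements, which are active in mouse and silenced by methylation, had 10 peaks with best scores from 41.9 to 75.5 and 0 in all 3 lists. ETn elements had 4 peaks and the MMERVK and RLTR10 group 7, none in all 3 lists. A copy of RMER19B 132919 bp from Commd3 had the highest score of the LTR members found in 2 lists, with 71.8 in replicate 1 and 125 in replicate 3. Another RMER19B copy, 25895 bp upstream of Ino80c, a chromatin remodelling subunit, scored 46.5 in replicate 2 and 94.4 in replicate 3.

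Some retrotransposon peaks carried the same scores at different places. Scores are deposited to 2 decimals, and members were counted as repeating when they were found in the same lists with equal scores in each. This held for 31 of the 250 members (12.4%) in 10 groups, beside 48 of all 778 common peaks (6.17%) and 0 of the 242 distal peaks outside repeats. In a single list equal scores are frequent: 71.2% of the peaks of replicate 1 shared theirs with another peak. The groups held 17 LTR, 11 LINE and 3 SINE members. No snRNA, satellite, rRNA or simple repeat member was in a group.

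The groups had equal widths as well as equal scores. In the largest, 5 copies of RLTR13A3 on the X chromosome, each 159 bp wide, scored 74.93 in replicate 1 and 44.77 in replicate 3 and were absent from replicate 2. They spanned 28409.7 kb, and their distances to the TSS of different genes were alike: 33433 to 34796 bp, at Gm10921, Gm14347, Gm14345, Gm14351 and Spin2-ps1. Another 4 peaks of 88 bp in IAPEz-int copies on chromosomes 11, 12, 13 and X, nearest to Utp6, Rab10os, BC048507 and Vsig1, scored 62.52 and 45.93 in replicates 1 and 2. Young L1 copies formed a group of 4 on chromosomes 2, 12, 14 and 18, nearest to Plxdc2, 1810007C17Rik, Fhit and Cbln2, 95 bp wide, with 41.01 in replicate 1 and 50.17 in replicate 3. They also formed a group of 3 on chromosomes 6, 8 and X, nearest to Gm6578, March1 and C030023E24Rik, 99 bp wide, with 58.20 and 83.32 in replicates 1 and 2.

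The remaining groups were smaller. RLTR10 copies near Pdzrn4 (2 peaks) and BC046251, 91 bp wide, scored 58.20 in replicate 1 and 69.26 in replicate 3. MERVL-int copies, of the element expressed in the early embryo, near Inhba, Kif16b and Speer6-ps1, 81 bp wide, scored 47.42 and 44.03 in replicates 1 and 3. B1_Mur1 copies on chromosome 4 lay 21659, 21654 and 21665 bp upstream of Gm21541, Ccl21c and Gm13304 and scored 45.77 and 66.71 in replicates 1 and 2. Pairs were found at Cyp4a12a (L1Md_A and L1Md_F3; 49.53 and 52.63 in replicates 1 and 3), at Agmo and Ctnnd2 (L1Md_A and L1Md_T; 42.18 and 44.71 in replicates 2 and 3), and at Herc3 and Gm20125 (RLTR1B; 41.64 and 43.34 in replicates 2 and 3). Whether such peaks hold the same reads was not tested, since the files give no reads.

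**Figure D4:**
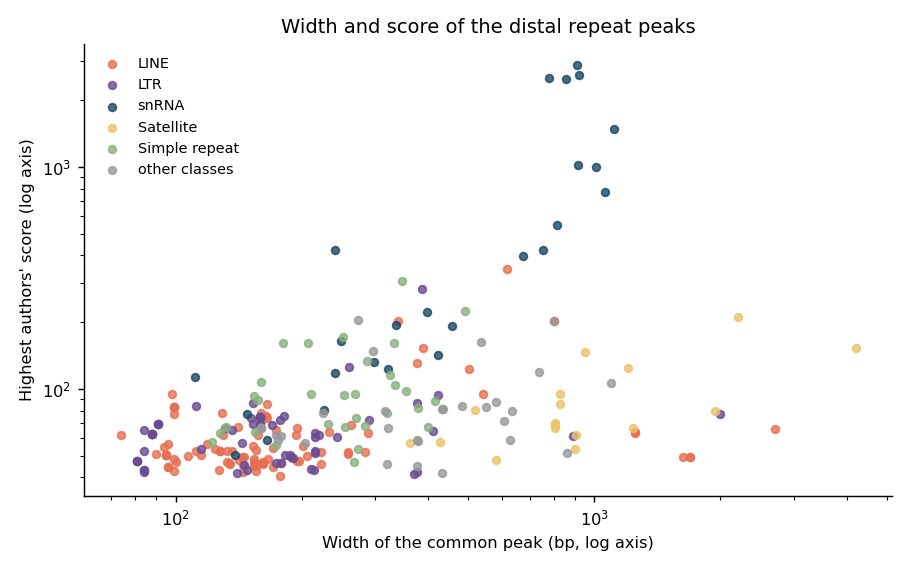
Width of each common peak in bp (horizontal, log axis) against its highest authors' score (vertical, log axis) for the 250 distal repeat peaks, coloured by class. LINE and LTR peaks have median widths of 156 and 159 bp, the 11 snRNA peaks over 500 bp have best scores of 397 to 2899.6, and satellite peaks (median 827 bp) have best scores of 48.0 to 211.

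LINE and LTR peaks were narrow and mostly intergenic. The median width was 199 bp over all members, 159 bp over the 147 LINE and LTR members and 304.5 bp over distal peaks outside repeats. Peaks under 100 bp numbered 32 among the members, all of them LINE (17) or LTR (15) copies, and 0 among the distal peaks outside repeats. By position, 193 members (77.2%) were intergenic and 57 intronic, against 123 intergenic (50.8%) of the distal peaks outside repeats. Of the 147 LINE and LTR members, 25 were in introns. The median distance to the TSS was 66062 bp for the members, 122367 bp for LINE and 24714 bp for snRNA copies, against 36450 bp outside repeats. The X chromosome held 22 members (8.80%), against 5 of the distal peaks outside repeats (2.07%) and 29 of all common peaks (3.73%). Of these 22, 21 were LINE or LTR copies, 0 were in all 3 lists and 16 were absent from replicate 2. Of all 250 members, 147 were LINE or LTR, 41 were in all 3 lists and 97 were absent from replicate 2. Over all 778 common peaks, 233 were in all 3 lists and 202 were absent from replicate 2. Of the 16, 6 were RLTR13A3 copies, 5 of them with equal scores, and others lay close together, as given below. Neither these counts nor the X share are therefore of separate places.

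Some of the wider members lay close together on the X chromosome. In 7 members between 120113640 and 122459744, a range chosen after its values were seen, with Cldn34c1, Vmn2r121 or 4932411N23Rik as nearest gene, scores in replicate 1 were 40.3 to 57.0, those in replicate 3 were 41.8 to 64.2, and none had a peak in replicate 2. They were copies of L1_Mus2 (2 peaks of 1251 bp), Lx3A (3 peaks of 1626 to 1695 bp), RLTR21 (888 bp) and RSINE1 (433 bp). In replicate 3 the L1_Mus2 peaks scored 64.2 and 63.2, RLTR21 61.5 and each Lx3A peak 49.6.

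Satellite peaks were found in replicates 1 and 3 and almost wholly lacking in replicate 2. GSAT_MM, the major satellite of the pericentromere, held 14 of the 17 peaks and SYNREP_MM held 3. All 17 were present in both replicates 1 and 3, and 16 were absent from replicate 2. The exception was the first peak of the region nearest to Mir101c at 2999999 to 3002205 of chromosome 9, which scored 170.3, 40.1 and 211. That region held 11 members within 28827 bp. Replicate 1 had 12 peaks there, replicate 3 had 14 and replicate 2 had 1, and they covered 18551, 15763 and 2207 bp. The second peak in order of score, from 3024620 to 3028825, scored 152.5 and 127 in replicates 1 and 3.

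A second satellite region of 4 members within 5255 bp on chromosome 2 had Lrrc4c, a synaptic adhesion gene, as its nearest gene, 1194947 to 1199126 bp away. Its SYNREP_MM copy from 98502288 to 98503234 scored 144 and 147 in replicates 1 and 3, and its GSAT_MM copy from 98506339 to 98507542 scored 42.0 and 125. The others scored 40.9 and 48.0 (GSAT_MM) and 56.7 and 57.7 (SYNREP_MM). Single peaks lay near 4933422A05Rik (GSAT_MM, 75.8 and 80.2) and Chl1 (SYNREP_MM, 41.6 and 57.3). Over the 17 satellite members the midpoints of the replicate peaks differed by a median of 0.5 bp, against 36.0 bp over all common peaks. The spread rests on 2 lists for 16 of the 17, but on 3 lists for 233 of the 778 common peaks, so the values are not like for like. IAPEz-int copies had a median of 0 bp and L1Md_ copies 7 bp, each found in 2 lists. The ratio of replicate 1 to replicate 3 scores over the 17 satellite members had a median of 0.946, and no ratio over all common peaks was computed.

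**Figure D5:**
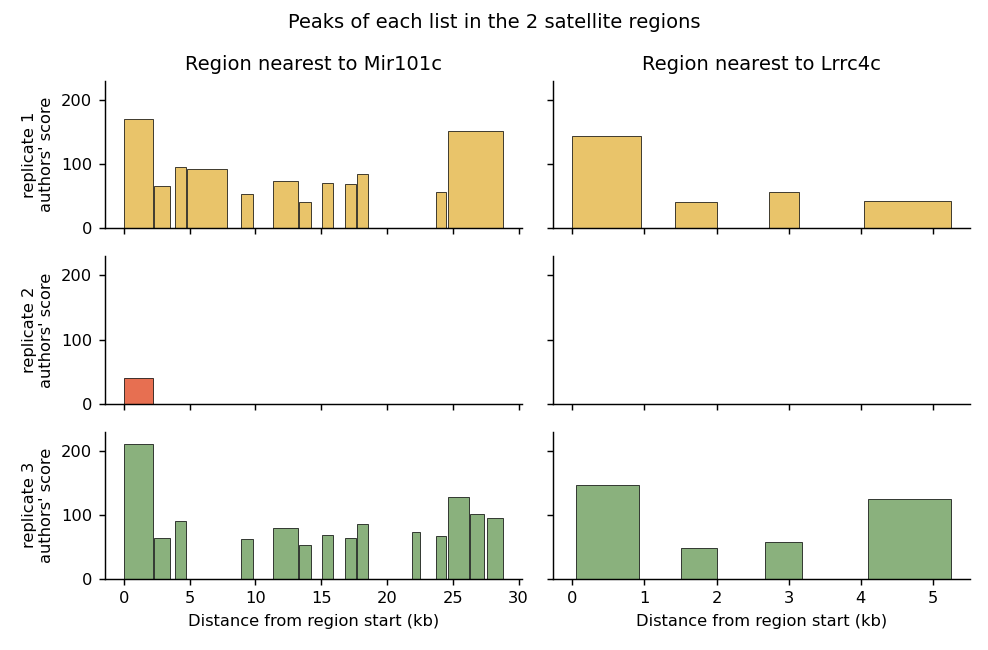
Peaks of each replicate list in the 2 satellite regions, nearest to Mir101c (left) and Lrrc4c (right), with the distance from the first base of the region in kb (horizontal) and the authors' score as bar height (vertical), 1 row per replicate. Replicates 1 and 3 have 12 and 14 peaks in the left region and 4 each in the right one, whereas replicate 2 has 1 and 0.

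Copies of ribosomal RNA held 10 members, of which 3 (30.0%, 6.67 to 65.2%) were in all 3 lists, beside 29.9% of all common peaks. The other 7 were absent from replicate 2. LSU-rRNA_Hsa, a match to the large subunit RNA, held 9 and SSU-rRNA_Hsa, a match to the small subunit RNA, held 1. The SSU copy 87292 bp upstream of Gm8579 on chromosome 6 scored 107, 67.8 and 80.4. The intronic LSU copy nearest to Filip1l scored 119, 43.5 and 101, and that 284310 bp upstream of Pex2, a peroxisome assembly gene, scored 59.0, 48.8 and 42.8. These were the 3 in all lists. The LSU copy nearest to Arhgap21 scored 83.5 in replicate 1 and 59.9 in replicate 3. Where a peak was found in both, replicate 1 scored above replicate 3 in 9 of 10. The same count over all common peaks was not made, so a difference between whole lists was not separated.

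Simple repeats had 8 of 31 peaks (25.8%, 11.9 to 44.6%) in all 3 lists, beside 29.9% of all common peaks. With only replicate peaks of 60 or more the share was 9.68%, and over 50000 bp from a TSS it was 7.69% (1 of 13). At these settings 43 of 242 and 25 of 96 distal peaks outside repeats, respectively, were in all 3 lists. Repeat units of 5 bases were the most frequent, with 15 of the 31. The pentamers (CATTC)n and the reverse complement (GAATG)n are the same tandem sequence read on opposite strands, and together held 4 peaks, all of which were in replicates 2 and 3. Those of the GAATG form were in all 3 lists: near Gm4736 with scores of 82.2, 71.5 and 162, and near Gm17644 with 47.6, 57.7 and 89.3. The (TG)n dinucleotide held 4 peaks, of which the copy near Mir5098 scored 84.7, 49.6 and 115.

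The highest simple repeat peak was a (CACAT)n copy on chromosome 7 from 29827408 to 29827755, 41132 bp from Mir1963. This peak lay in intron 84 of 105 of the transcript annotated there. It scored 306 in replicate 1, 41.9 in replicate 2 and 85.9 in replicate 3, so its height rested on replicate 1. The (TATAG)n copy 16141 bp from Ehbp1, a gene of vesicle transport, was even across lists with 156, 161 and 109. That of (CATATA)n near Pofut2, which adds fucose to secreted proteins, scored 97.3, 95.05 and 98.1. Further peaks in all 3 lists were (CAG)n near Acap2 with 89.9, 41.8 and 161, and (CATA)n near the splicing regulator Esrp1 with 88.7, 40.04 and 53.8. In 2 lists, (GA)n near the kinase gene Mark1 scored 224 in replicate 1 and 87.7 in replicate 3, and (CACTG)n near Mtcl1 scored 172 and 127 in the same lists.

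SINE peaks had 2 of 16 members (12.5%, 1.55 to 38.3%) in all 3 lists, both B2_Mm2 copies on chromosome 13. The copy 172710 bp from Zfp369 scored 55.4, 44.6 and 79.9, and that 246658 bp from Gm10324 scored 58.9, 40.1 and 87.4. The highest SINE score was that of a B4A copy 72639 bp from the TSS of Hcn4, a pacemaker channel gene. That copy scored 202 in replicate 1 and 47.3 in replicate 2, and lay in intron 22 of 28 of the transcript annotated there. A MIR copy, of an old SINE family shared among mammals, lay 12720 bp upstream of Foxo1, a transcription factor needed to keep spermatogonial stem cells, on chromosome 3 from 52059271 to 52059807. It scored 161 and 163 in replicates 1 and 2 and had no peak in replicate 3. The B3 copy in intron 1 of 8 of Fto, a gene for an RNA demethylase, scored 148 and 139 in replicates 1 and 3.

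The smallest classes had 2 members each. The DNA transposon copies were MER2 near Pkd1l2 (79.6 and 48.8 in replicates 1 and 3) and Tigger7 near Chrna9 (66.6 and 43.7 in replicates 1 and 2). Low-complexity copies were G-rich sequence near Plekhb2 (206 and 103 in replicates 1 and 3) and CT-rich sequence near Atxn7 (71.5 and 70.3).

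The nearest genes were set beside lists of silencing and testis genes. The lists were written with earlier results of these data known, so the counts are descriptions and test nothing. No share over all genes was set beside them. The 250 members had 211 different nearest genes, and 249 had a gene identifier found in the RefSeq table of GRCm38.p6. Of 30 genes known to keep retrotransposons silent, such as Dnmt3l, Trim28, Piwil2 and Piwil4, 0 were nearest to a member and 0 to any common peak. Of 20 spermatogonial genes, Tex14 and Foxo1 were nearest to a member, and 3, with Neurog3, to any common peak. Among 17 somatic testis genes, Pecam1 was nearest to a member and was also the 1 gene nearest to any common peak. Nearest means only that no annotated TSS was closer. All members are over 10000 bp away, whereas the common peaks also include places within 10000 bp.

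At the distance limit the members just inside were the Pecam1 copy of U3, at 10023 bp, and the Esrp1 repeat, at 10528 bp. The repeat peaks just outside were a simple repeat at 9956 bp from Mir7086, with scores of 139 and 132 in replicates 1 and 2, and an ETnERV2-int copy at 9673 bp from Olfr510, with 55.1 and 82.8 in the same lists.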

How the data were processed

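The authors' deposited files were 3 peak lists, called per sample, with the authors' score of each peak, and 1 table of peaks common to at least 2 samples, with annotation by HOMER (annotatePeaks.pl, mm9), per the file headers. Its TSS distance in bp, site class and repeat name are HOMER's. The submitters' processing notes name Bowtie2 2.0.0 and mm9, and peak names begin with MACS. Caller version, settings, duplicate removal and the placing of reads with several matches are not stated in the labels or headers, and could change peaks in repeats. The common table's own score column held 0 throughout (778 rows) and was left aside.

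A member counted as found in a list when it overlapped a peak by at least 1 bp (checked with bedtools 2.31.1 and on simulated peaks), and took the highest score there. Members within 50 kb formed a region. The text names the 10 members of best mean rank, the 3 of highest score per class, LINE, LTR, SINE and satellite members in all 3 lists, regions of 3 or more, repeated scores and those at the distance limit; other names were chosen after their values were seen. Shares carry exact Clopper-Pearson 95% intervals. The tests were exact sign-flip permutations over 3 replicates, Benjamini-Hochberg adjusted over 2. Members, lists and groups were chosen with earlier results of these data known. Replicates come from separate testes, and whether from separate animals is not given, so p-values measure the spread between testes. No mm9 sequence was used here. Python 3.11.15 and SciPy 1.17.1 were used.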

Additional observations from a re-analysis of the deposited data

How the results depend on the processing

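The lower median score in repeats than outside them kept its sign under every alternative run (-14.0 to -19.2, or -16.7 as percentiles within a list), with p = 0.25 in each exact permutation test over 3 replicates. Without 1 replicate it was -18.4 to -14.5 (exact p = 0.50). With replicate peaks scoring 60 or more, the share found in all 3 lists was 10.8% of members, 17.8% of distal peaks outside repeats, 9.68% of simple repeats, and 0% of satellites and of SINEs. Above 50000 bp it was 7.30% of 137 members, 7.69% of simple repeats, 33.3% of snRNA copies (1 of 3) and 0% of satellites. At that limit 25 of 96 distal peaks outside repeats were in all 3 lists, and their share did not leave its interval. A 50% reciprocal overlap gave 14.0% of members and 19.4% outside repeats. Without the snRNA class, an alternative added after seeing the data, it was 9.33%. With members within 50 kb or of equal scores in 2 lists counted as 1, also added, no share left its interval.

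Without 1 replicate, the share found in both remaining lists was 37.6 to 55.2% of members, 47.5 to 63.6% outside repeats, 32.95 to 42.0% of LINE, 32.2 to 42.4% of LTR, 41.9 to 61.3% of simple repeats, 80.0 to 92.0% of snRNA, 5.88 to 100% of satellites, 18.8 to 56.25% of SINEs and 30.0 to 100% of rRNA copies. The common table asks for 2 lists, so each of these shares follows from the members in all 3 lists and those absent from the replicate left out. They are therefore not separate checks. The 100% values, without replicate 2, mean that every satellite and rRNA member was in both replicates 1 and 3. Median scores of members moved by more than the spread between lists in these cases: 52.3 and 50.2 in replicates 1 and 3 above 50000 bp, and 63.7 and 56.0 in replicates 1 and 2 with members within 50 kb or of equal score in any list counted as 1. As percentiles the medians were 74.7, 57.6 and 74.5. No paired analysis was possible because the ChIP and input groups share fewer than 2 replicate numbers. The tests above pair sets of peaks within each list, not samples of these groups. Read depth is unknown, so a peak missing from a list may be a peak below the caller's limit there.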
